A study of Saccharomyces cerevisiae with 12 samples.

Results

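AcH4-rich peaks are stretches of the yeast genome at which neighboring tiling-array probes all recovered far more acetylated histone H4 (AcH4) than the typical probe. They held 6853 of the 41480 nuclear probes (16.5%), in 2222 peaks. The height of a probe was its log2 ratio of immunoprecipitated (IP) DNA over input DNA, with each array centered on its median, averaged first within each strain and then over the 4 strains. A peak was a run of 2 or more consecutive probes on a chromosome that all had a height above 1.0, which is a ratio of IP over input at least 2 times that of the median probe. The heights therefore chose the peaks and are given below as a description only.

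Chromatin was immunoprecipitated with an antibody to acetylated histone H4 from *Saccharomyces cerevisiae* cells grown in YPD, a rich medium, and 3 biological repeats of each strain were hybridized to 1 array each. The tested strains were *rco1*Δ, which lacks a subunit found only in the Rpd3S histone deacetylase complex, and *rsc1*Δ and *rsc2*Δ, which each lack 1 of a pair of related subunits of the RSC chromatin remodeling complex. The wild type strain was BY4741. On every array the IP DNA carried Cy5 and the input DNA of the same strain carried Cy3, so each ratio rests on both. A ratio centered on its array's median cannot show a change in AcH4 that was equal over the whole genome.

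Acetylated H4 is a mark of gene promoters and of the 5′ ends of transcribed genes. Rpd3S removes acetyl groups from histones within open reading frames (ORFs), where it acts on nucleosomes methylated by Set2 as RNA polymerase II passes. Rsc1 and Rsc2 sit in separate forms of RSC and carry bromodomains, which bind acetylated lysines.

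Each deletion strain matched its label. The input signal dropped at a single run of 7 probes in *rco1*Δ cells (chr13:414125-416052 of the sacCer1 build, on which all positions are given), where it averaged -4.26 in *rco1*Δ cells against 0.16 in the other strains on the centered log2 scale. The runs were 10 probes at chr7:601666-604154 in *rsc1*Δ cells and 9 probes at chr12:841533-843858 in *rsc2*Δ cells, each on the chromosome of the deleted gene, and no member of a peak lay in any of these loci. The arrays differed in the spread of their ratios over all nuclear probes. Their median absolute deviation was 0.53 to 0.69 in *rco1*Δ cells, 1.23 to 1.29 in *rsc1*Δ and *rsc2*Δ cells and 1.08 to 1.14 in wild type cells. In both channels of all 12 arrays, 5179 members (75.6%) were well above background, compared with 58.2% of all nuclear probes. The input of *rco1*Δ replicate 3 was dim, with a median background-subtracted signal of 17.5 against 57 to 453 on the other arrays. In that input 79.0% of the nuclear probes were well above background, and 11098 nuclear probes had no ratio by plain background subtraction on this array.

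The peaks were short and numerous. With probes starting a median of 257 bp apart, 1053 peaks (47.4%) held 2 probes, 571 (25.7%) held 3, 279 (12.6%) held 4 and 319 held 5 or more, with 13 probes in the peak of most probes. Peak width, from the start of the first probe to the end of the last, had a median of 484 bp, with quartiles at 319 and 763 bp and a 90th percentile of 1142 bp. Together the peaks covered 1369 kb, which is 11.5% of the span that the probes cover. A further 2307 probes had a height above 1.0 with no neighbor above it, and these lone probes were not counted as members.

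Peaks lay a median of 3862 bp from midpoint to midpoint, with quartiles at 2123 and 6866 bp. Of 2206 pairs of neighboring peaks, 110 (4.99%) had midpoints 500 to 1000 bp apart, 393 (17.8%) were 1000 to 2000 bp apart, 869 (39.4%) were 2000 to 5000 bp apart and 834 (37.8%) were more than 5000 bp apart. A single probe separated 215 of the pairs (9.75%), and the median height of these separating probes was 0.67, so that a lower height limit would have joined many of them.

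**Figure D1:**
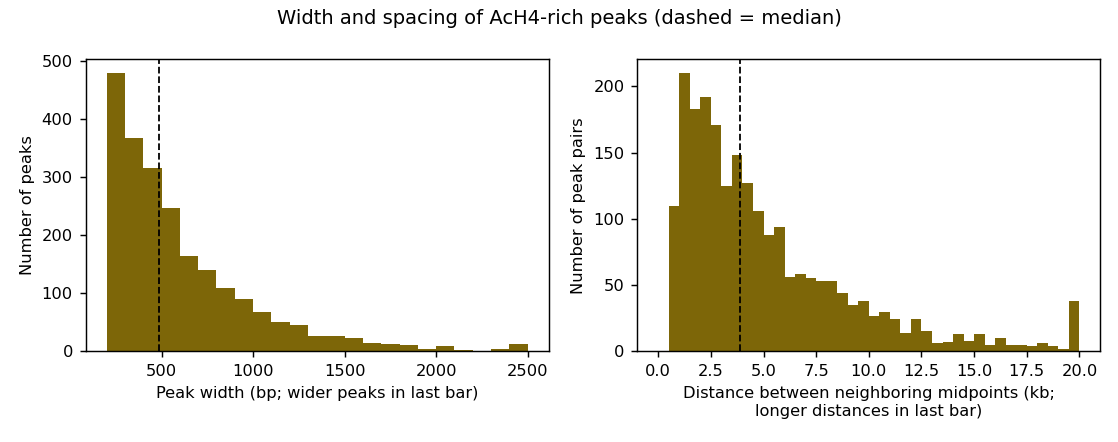
Left, number of AcH4-rich peaks by width in bp. Right, number of neighboring pairs by the distance between their midpoints in kb. Dashed lines mark the medians of 484 bp and 3862 bp, and both distributions have a long tail to the right.

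The density of peaks was 18.7 per 100 kb over the genome and ran between 12.6 on chromosome 1 and 22.0 on chromosome 8. The densest 20-kb stretch, from chr11:262002, held 11 peaks. The longest stretches without a peak were chr12:448275-490570 (42296 bp, only 20 probes), chr16:834347-868161 (33815 bp, 81 probes) and chr7:795967-827328 (31362 bp, 68 probes). The first of these was thinly covered by probes, whereas the other two were covered and 8 lone probes above 1.0 lay in the stretch on chromosome 16. Within the outer 20 kb of the chromosomes, 12.1% of 1785 probes were members, compared with 16.7% of 39695 probes elsewhere.

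The mean height over a peak's probes had a median of 1.62 in peaks of 2 probes, 1.71 in peaks of 3 or 4 probes and 1.78 in peaks of 5 or more. Over all members the median height was 1.61, with quartiles at 1.27 and 2.09 and a highest value of 4.00. The limit of 1.0 did not fall at a gap in the heights, since 638 members lay within 0.1 above it and 1046 probes lay within 0.1 below it. The 100 lowest members had median ratios of 0.40 (*rco1*Δ), 1.28 (*rsc1*Δ), 1.25 (*rsc2*Δ) and 1.09 (wild type), and the 100 probes just below the limit had 0.40, 1.27, 1.26 and 1.1 in the same order of strains.

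Among the 5 widest peaks, 3 were covered by probes throughout. The peak at chr2:169508-172720 spanned 3213 bp with 10 probes, chr10:312305-315417 spanned 3113 bp with 13 probes and chr16:479794-482851 spanned 3058 bp with 12 probes. The other two, at chr1:207629-223026 (15398 bp) and chr3:198387-201391 (3005 bp), owed their width to steps of 15338 and 2498 bp between neighboring probes, and the AcH4 level inside those steps was not measured. At the peak on chromosome 10 the mean ratio over its probes was 0.87, 0.90 and 1.13 on the *rco1*Δ arrays, 2.26, 2.46 and 2.32 on the *rsc1*Δ arrays, 2.54, 2.20 and 2.27 on the *rsc2*Δ arrays and 1.90, 2.18 and 2.08 on the wild type arrays. All 3 *rco1*Δ arrays were thus below all arrays of the other strains over this domain with their own input. Divided by the mean input of the 3 wild type arrays instead, the peak averaged 1.65 in *rco1*Δ and 2.05 in wild type cells.

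The highest peak, chr2:483916-484345, was 430 bp wide with 2 probes. Its mean ratio was 1.04, 1.43 and 1.83 on the *rco1*Δ arrays, 3.48, 3.92 and 3.56 on the *rsc1*Δ arrays, 4.20, 3.46 and 3.81 on the *rsc2*Δ arrays and 3.42, 3.53 and 3.35 on the wild type arrays. It was followed by chr10:109340-109971, chr3:142353-142643, chr7:225597-226401 and chr16:474720-475204. With the own input, each of these 5 peaks had a mean ratio between 1.09 and 1.63 in *rco1*Δ cells, against 3.05 to 3.44 in wild type cells. The *rsc1*Δ means were 3.44 to 3.79 and the *rsc2*Δ means 3.30 to 3.83, and no probe of these peaks was called different from wild type cells in either strain. Divided by the mean wild type input, the *rco1*Δ means were 1.88 to 3.09, against 3.05 to 3.43 in wild type cells. At the highest peak they were 3.09 and 3.43, so most of its *rco1*Δ difference depended on the input.

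Because the members were chosen on all 12 arrays, the peaks were called again on 11 arrays and read in the array left out. The 11 arrays gave 2176 to 2289 peaks and kept 95.6% to 98.4% of the members. In the array left out, 22.5%, 26.4% and 52.4% of these members were above 1.0 in *rco1*Δ cells, 92.0%, 95.8% and 94.2% in *rsc1*Δ cells, 93.4%, 92.0% and 95.0% in *rsc2*Δ cells and 91.5%, 92.4% and 95.4% in wild type cells. Of the probes outside the peaks, 3.06% to 8.73% were above 1.0 in *rco1*Δ cells, 14.2% to 15.7% in *rsc1*Δ and *rsc2*Δ cells and 11.8% to 11.9% in wild type cells. Most members were thus above 1.0 on every *rsc1*Δ, *rsc2*Δ and wild type array left out. Most were below 1.0 on 2 of the 3 *rco1*Δ arrays. The height that chose the members is an average over the strains, and the *rco1*Δ ratios were low. Members therefore had to be high on average in the other strains, so these shares cannot show that peak positions were shared. Peaks called in each strain on its own are compared below. The limit of 1.0 was the same on every array, although the ratios of the *rco1*Δ arrays had a smaller spread. The 11 arrays also still held the other repeats of the strain of the array left out.

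Peaks were also called in each strain on its own mean. This gave 599 *rco1*Δ peaks, 2789 *rsc1*Δ peaks, 2760 *rsc2*Δ peaks and 2485 wild type peaks. Of the *rco1*Δ peaks, 485 (81.0%) shared a probe with a wild type peak, and of the wild type peaks, 468 (18.8%) shared a probe with an *rco1*Δ peak. The *rsc1*Δ peaks shared a probe with wild type peaks in 2289 cases (82.1%) and the *rsc2*Δ peaks in 2243 (81.3%), and the wild type peaks were shared in 93.8% of cases with *rsc1*Δ and 91.0% with *rsc2*Δ. These numbers depend on the spread of the arrays. With every array scaled to the same median absolute deviation, the strains had 2138 (*rco1*Δ), 2428 (*rsc1*Δ), 2444 (*rsc2*Δ) and 2360 (wild type) peaks. Of the *rco1*Δ peaks, 67.0% then shared a probe with a wild type peak, and 60.1% of the wild type peaks shared one with an *rco1*Δ peak.

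Deletion of *RCO1* gave the largest difference at the peaks among the 3 mutants. The median ratio over the members was 0.61, 0.72 and 1.04 on the *rco1*Δ arrays, against 1.77, 1.75 and 1.78 on the wild type arrays, and these arrays did not overlap. By limma with Benjamini-Hochberg adjustment over all nuclear probes, 4933 members (72.0%) were lower in *rco1*Δ than in wild type cells at an adjusted p under 0.05, whereas 28.1% of all nuclear probes were lower. The median difference of the members was -1.08, and that of all nuclear probes was -0.24. Peaks called only from *rsc1*Δ and *rsc2*Δ cells held 9283 members, of which 6443 (69.4%) were lower in *rco1*Δ cells with a median difference of -1.03. The arrays of these 2 strains enter this comparison through the shared estimate of the spread. Their peaks also shared a probe with wild type peaks in 82.1% (*rsc1*Δ) and 81.3% (*rsc2*Δ) of cases. This choice of probes is therefore not independent of the wild type ratios.

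With each array's own input, nearly every peak had a lower mean ratio in *rco1*Δ cells. The mean difference over a peak's members was below 0 in 2209 of 2222 peaks (99.4%), with a median of -1.10 and a range of -2.37 to 0.47. Probe by probe, 98.0% of the members had a difference below 0, beside 57.5% of all nuclear probes. With the wild type input these shares were 77.8% and 51.9%. With the own input, at least 1 member was called lower in 2094 peaks (94.2%) and every member in 992 (44.6%). Of all nuclear probes, 28.1% were called lower. Members were chosen as high on arrays that include the wild type ones, which itself favors few calls of higher AcH4 in *rco1*Δ cells. Such higher AcH4 was called at 1 member, compared with 26.0% of all nuclear probes. This probe, chr16:801846-801905, had ratios of 1.63, 1.51 and 1.87 in *rco1*Δ cells against 0.74, 1.16 and 1.14 in wild type cells (difference 0.66, limma adjusted p = 0.0391). It was singled out after its values were seen, and it was not called with the wild type input (limma adjusted p = 0.921).

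**Figure D2:**
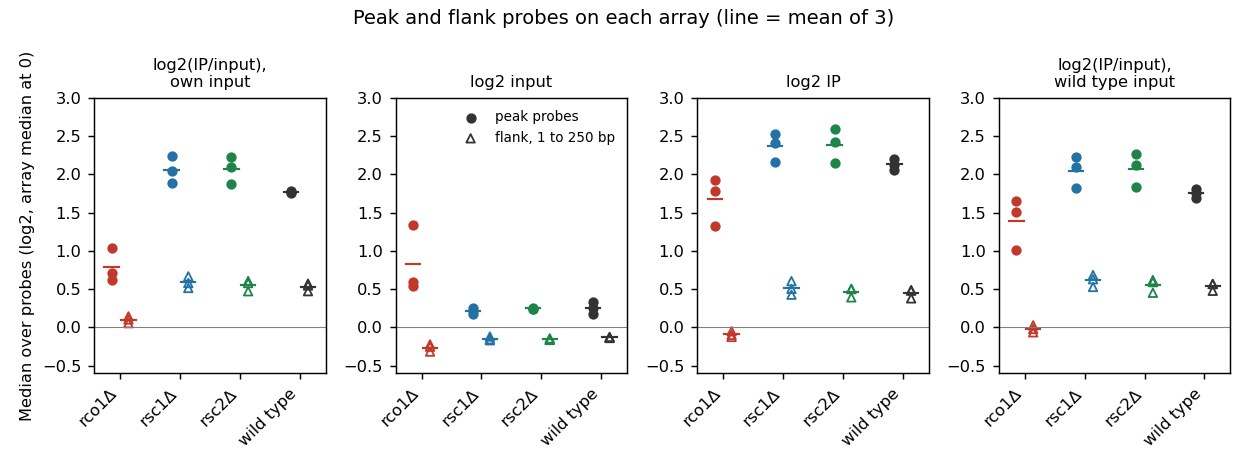
Medians over the 6853 members (filled circles) and over the 2752 probes within 250 bp of a peak (open triangles) on each array. Lines mark the mean of 3 arrays per strain. From left, the panels show the log2 ratio of IP over own input, the log2 input, the log2 IP and the log2 ratio with the wild type input. With the own input the member medians lie between 0.61 and 1.04 on the 3 *rco1*Δ arrays and between 1.75 and 1.78 on the 3 wild type arrays.

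The size of this difference depended on the input. The *rco1*Δ input itself was high at the peaks, with member medians of 1.34, 0.55 and 0.59 on the centered log2 scale, against 0.33, 0.25 and 0.18 for the wild type input, and it was 0.17 to 0.26 in *rsc1*Δ and *rsc2*Δ cells. The IP signal had member medians of 1.93, 1.32 and 1.79 in *rco1*Δ cells, against 2.21, 2.13 and 2.06 in wild type cells. Over all nuclear probes of an array, the input and the IP signal had a Pearson r of 0.81 to 0.88 on the *rco1*Δ arrays and 0.56 to 0.67 on the other 9 arrays, as a description across probes that share an array. To see how far the lower ratios depended on the input, every array was also divided by the mean input of the 3 wild type arrays.

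With the wild type input, the member median was 1.66, 1.01 and 1.51 on the *rco1*Δ arrays, against 1.81, 1.75 and 1.69 on the wild type arrays. The arrays still did not overlap, but *rco1*Δ replicate 1 lay just below wild type replicate 3. The median difference was -0.45, compared with -0.05 over all nuclear probes, and 1452 members (21.2%) were called lower by limma, whereas 16.2% of all nuclear probes were. Members called higher numbered 65 (0.949%), against 23.9% of all nuclear probes. The share of members called lower was thus close to that of all probes with this input. Few members were again called higher, but the members were chosen as high on arrays that include the wild type ones. That choice itself favors few such calls, so nothing is concluded from their scarcity. Scaling the arrays to an equal spread gave a median difference of -0.39 with each array's own input. Limma then called 19.5% of the members lower, beside 22.3% of all nuclear probes, and 3.09% higher, beside 21.5%.

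With the wild type input for all arrays, peak calling itself gave 2391 peaks with 7224 probes. Of these probes 6218 were members of the peaks above, which is 86.1% of the probes called with the wild type input and 90.7% of the members. The number of peaks in *rco1*Δ cells alone was 2128 with the wild type input. Of the wild type peaks, 1417 (57.1%) then shared a probe with an *rco1*Δ peak. Peaks with every member above 1.0 in *rco1*Δ cells numbered 127 (5.72%) with the own input and 786 (35.4%) with the wild type input.

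The difference at the peaks grew with their height with each array's own input but not with the wild type input. For members with a height of 1.0 to 1.5, 1.5 to 2.0, 2.0 to 2.5 and above 2.5, the median difference between *rco1*Δ and wild type cells was -0.80, -1.07, -1.41 and -1.73. With the wild type input the medians were -0.53, -0.38, -0.38 and -0.47, with no steady order. Across the peaks, the mean ratio in *rco1*Δ cells had a slope of 0.37 on that in wild type cells, compared with slopes of 1.02 for *rsc1*Δ and 0.98 for *rsc2*Δ cells, all with the own input and as a description across peaks of the same arrays. The heights were averaged over arrays that also enter the difference. Over all nuclear probes the median absolute deviation was 0.53 to 0.69 in *rco1*Δ and 1.08 to 1.14 in wild type cells. The growth with height therefore cannot be told apart from this difference in spread.

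The flanks of the peaks behaved differently from their centers with respect to the input. The 2752 probes within 250 bp of a peak but outside any peak had median ratios of 0.14, 0.10 and 0.06 in *rco1*Δ cells, against 0.47, 0.55 and 0.57 in wild type cells. Divided by the wild type input, they had -0.06, 0.03 and -0.02 in *rco1*Δ cells, against 0.48, 0.57 and 0.57 in wild type cells. The arrays did not overlap with either input, and the input there was lower in *rco1*Δ (-0.32, -0.22 and -0.25) than in wild type cells (-0.13, -0.12 and -0.14). In this flank, limma called 744 probes (27.0%) lower and 142 (5.16%) higher with the own input, and 828 (30.1%) lower and 152 (5.52%) higher with the wild type input. Of all nuclear probes, 28.1% were lower and 26.0% higher with the own input, so the share called lower in the flank was no larger than over the genome, and 16.2% were lower and 23.9% higher with the wild type input.

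Between 250 and 500 bp from a peak, the median difference between *rco1*Δ and wild type cells was -0.33 with the own input and -0.38 with the wild type input. It was 0.04 and 0.06 between 500 and 1000 bp. Beyond 1000 bp it was 0.28 and 0.38, and of these 22541 probes 38.7% were called higher in *rco1*Δ cells and 18.2% lower with the own input, beside 26.0% and 28.1% of all nuclear probes. Between 500 and 1000 bp the array medians overlapped with the wild type input (-0.31, -0.15 and -0.23 in *rco1*Δ cells against -0.29, -0.32 and -0.31 in wild type cells). The *rco1*Δ medians were therefore below those of wild type cells over the peak and the nearest 500 bp, and above them beyond 1000 bp.

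**Figure D3:**
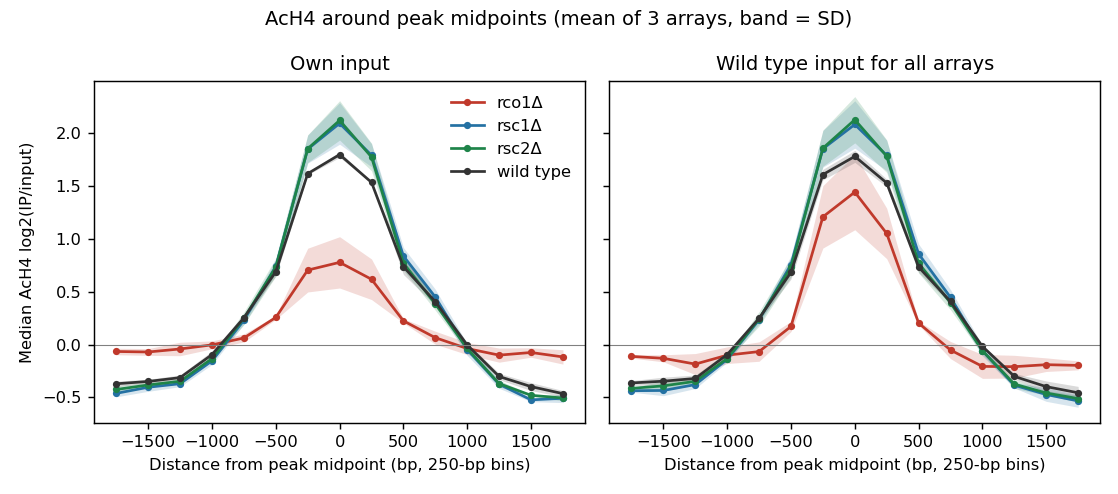
Log2 ratio of IP over input by distance in bp of a probe's midpoint from the peak's midpoint, in bins of 250 bp, as the mean and SD of the 3 array medians of each strain, over a peak's own probes and probes outside any peak. At the midpoint *rco1*Δ cells had 0.78 and wild type cells 1.80 with the own input, and 1.44 and 1.78 with the wild type input.

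At the peak midpoint the array medians averaged 0.78 ± 0.24 for *rco1*Δ, 2.09 ± 0.20 for *rsc1*Δ, 2.12 ± 0.19 for *rsc2*Δ and 1.80 ± 0.03 for wild type cells (SD, n = 3 each). The averages were 1.44 ± 0.36 with the wild type input in *rco1*Δ cells and 1.78 ± 0.06 in wild type cells, which differ by less than the SD of the *rco1*Δ arrays. At 500 bp to the right of the midpoint, *rco1*Δ cells had 0.22 ± 0.02 and wild type cells 0.74 ± 0.07 with the own input. The difference there was -0.51 with the own input and -0.53 with the wild type input. At 500 bp to the left it was -0.43 and -0.51 in the same order. At 750 bp it was -0.19 and -0.31 to the left and -0.34 and -0.46 to the right. In these bins the difference was thus larger in size with the wild type input, whereas at the midpoint it was smaller.

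**Figure D4:**
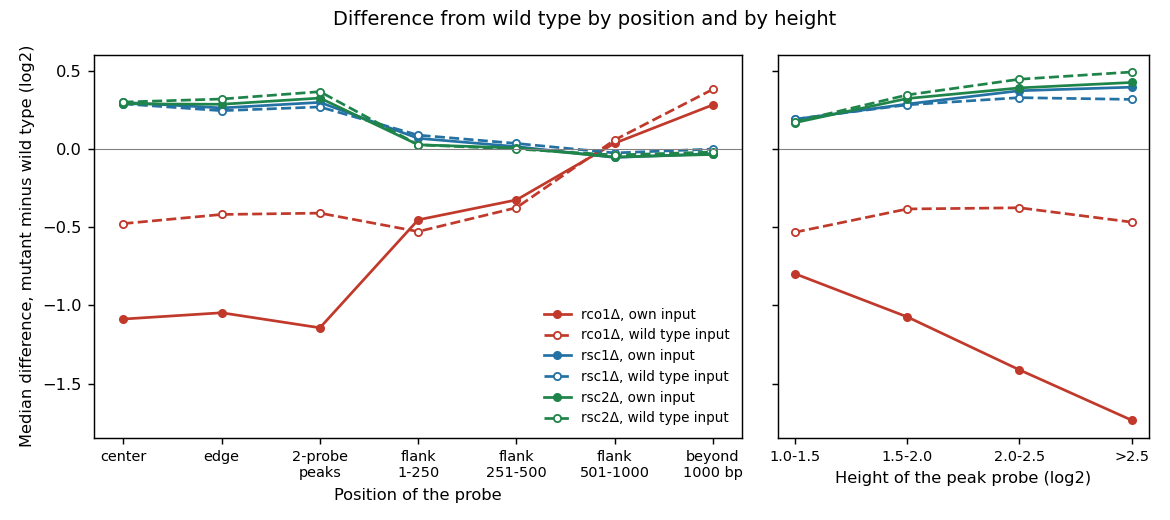
Median difference in log2 ratio between each mutant and wild type cells, for members at the center, at the edge and in peaks of 2 probes and for probes at up to 250, 250 to 500, 500 to 1000 and more than 1000 bp from a peak (left), and for members by height (right), with the own input (solid) and the wild type input (dashed). Center probes of *rco1*Δ cells had a median of -1.09 with the own input and -0.48 with the wild type input, and probes in the nearest flank had -0.45 and -0.53.

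The 3 members with the largest falls in *rco1*Δ cells were chosen among 4356 called members with signals above background on each of the 6 arrays and with no overlap between strains. The probe chr11:447656-447715, at the right end of the peak chr11:446817-447715, had ratios of -1.78, 0.94 and 0.87 in *rco1*Δ cells against 2.83, 3.59 and 2.61 in wild type cells (difference -3.00, limma adjusted p = 0.000319). All 4 probes of this peak were called lower. The size of the difference rests on replicate 1, without which it was -2.10, and with the wild type input it was -1.77 (limma adjusted p = 0.00478).

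The probe chr15:299659-299717 had ratios of -0.38, -0.40 and 1.36 in *rco1*Δ cells against 2.92, 3.29 and 3.29 in wild type cells (difference -2.97, limma adjusted p = 0.000103). The probe chr13:387013-387072 had -0.84, 0.21 and 1.16 in *rco1*Δ cells against 3.00, 3.01 and 2.89 in wild type cells (difference -2.79, limma adjusted p = 2.72e-05). These 2 calls were lost with the wild type input, where the differences were -1.10 (limma adjusted p = 0.0911) and -0.59 (limma adjusted p = 0.329).

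The peaks had slightly higher median ratios in *rsc1*Δ and *rsc2*Δ cells than in wild type cells, but hardly any single probe passed the test. The median ratio over the members was 1.89, 2.24 and 2.05 on the *rsc1*Δ arrays and 2.23, 1.87 and 2.09 on the *rsc2*Δ arrays, against 1.77, 1.75 and 1.78 on the wild type arrays. All 6 mutant arrays were above all 3 wild type arrays. The median difference from wild type cells was 0.28 for *rsc1*Δ and 0.29 for *rsc2*Δ, compared with 0.03 over all nuclear probes for each. It was 0.26 and 0.32 with the wild type input.

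These differences moved with the spread of the arrays, which was wider in both mutants. With every array scaled to the same median absolute deviation, the median difference of the members was 0.01 for *rsc1*Δ and 0.04 for *rsc2*Δ. The differences were 0.19 and 0.17 for members with a height of 1.0 to 1.5, and 0.40 and 0.43 for members above 2.5. In the nearest flank they were 0.07 for *rsc1*Δ and 0.03 for *rsc2*Δ. Over all members, the median difference was 0.17 without *rsc1*Δ replicate 2 and 0.17 without *rsc2*Δ replicate 1, each for its own strain.

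Among the members, limma called 0 as higher and 0 as lower for *rsc1*Δ against wild type cells, where 0.0482% of all nuclear probes were higher and 0.0603% lower. At an unadjusted p under 0.05, 647 members (9.44%) differed, compared with 8.05% of all nuclear probes. In *rsc2*Δ cells 3 members were higher and 1 was lower, where 0.154% of all nuclear probes were higher and 0.374% lower. With the wild type input, 0 members were called in either direction for *rsc1*Δ (0.00723% of all nuclear probes higher, 0.0338% lower) or *rsc2*Δ (0.0289% higher, 0.0579% lower). The members called for the single RSC deletions were thus as rare as, or rarer than, such calls over the genome.

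The member called higher in *rsc2*Δ cells under the rule for named probes was chr4:413541-413600, with ratios of 3.57, 3.09 and 3.38 in *rsc2*Δ cells against 1.97, 1.61 and 1.67 in wild type cells (difference 1.60, limma adjusted p = 0.0402). The member called lower was chr7:98525-98584, with 0.49, 0.12 and -0.14 in *rsc2*Δ cells against 1.48, 2.05 and 1.60 in wild type cells (difference -1.56, limma adjusted p = 0.0263). It was the first of 3 probes of its peak, and the flank probe to its left had a difference of -1.77. The other two members called higher, chr8:148168-148227 and chr16:710395-710453, were not well above background on all 6 arrays. No member was called for *rsc2*Δ without any one of the wild type arrays or without *rsc2*Δ replicate 3 (0 members in each case). In these cases at most 0.0313% of all nuclear probes were higher and 0.0603% lower.

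The *rsc1*Δ and *rsc2*Δ strains were also compared with each other, which asks whether the loss of either subunit had the same effect on AcH4. The members had a median difference of 0.01, with 5 called higher in *rsc1*Δ cells and 12 lower, where 0.494% of all nuclear probes were higher and 0.448% lower. Of the peaks, 1081 of 2222 (48.7%) had a mean difference below 0. Peaks called only from *rco1*Δ and wild type cells held 4244 members, of which 8 were higher and 9 lower in *rsc1*Δ cells. With the wild type input, 1 member was higher and 2 were lower, beside 0.135% and 0.123% of all nuclear probes. The number of members called was 3 without *rsc2*Δ replicate 3, beside 0.164% of all nuclear probes higher and 0.125% lower. It was 26 without *rco1*Δ replicate 3, beside 0.653% and 0.586%. The *rco1*Δ arrays enter through the shared estimate of the spread.

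A peak on chromosome 12 had all of its probes called with the own input, and 1 of them with the wild type input. The 3 probes of chr12:395374-395969 were called lower for *rsc1*Δ against *rsc2*Δ cells, and the nearest probes on either side had differences of -1.53 and -2.01. Its first probe, chr12:395374-395433, had ratios of 0.56, 1.51 and 0.87 in *rsc1*Δ cells against 3.58, 3.03 and 3.78 in *rsc2*Δ cells (difference -2.48, limma adjusted p = 0.00188). Wild type cells averaged 2.63 ± 0.14 at this probe (SD, n = 3), and the difference between *rsc1*Δ and wild type cells was -1.65 (limma adjusted p = 0.0839). The call of this first probe against *rsc2*Δ cells held with the wild type input (difference -2.18, limma adjusted p = 0.0442), and those of the other two probes were lost.

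The other named falls in *rsc1*Δ relative to *rsc2*Δ cells lay in a single peak of 2 probes, chr13:166948-167203. Its right probe had ratios of -0.35, 0.56 and 0.03 in *rsc1*Δ cells against 2.28, 2.44 and 1.75 in *rsc2*Δ cells (difference -2.07, limma adjusted p = 0.00277), and its left probe had -0.15, 0.14 and 0.31 in *rsc1*Δ cells against 1.77, 2.23 and 2.11 in *rsc2*Δ cells (difference -1.94, limma adjusted p = 0.00208). Wild type cells lay in between, with 1.20, 1.25 and 1.48 at the right probe. Using the wild type input, the call of the right probe was lost (limma adjusted p = 0.0752) and that of the left probe held (limma adjusted p = 0.0114).

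The largest rises in *rsc1*Δ relative to *rsc2*Δ cells were 1.75 at chr8:503783-503837 (limma adjusted p = 0.0183), 1.73 at chr7:98525-98584 (limma adjusted p = 0.00768) and 1.53 at chr12:325081-325137 (limma adjusted p = 0.0315). Each was the only probe of its peak called higher, and all 3 calls were lost without *rsc2*Δ replicate 3, with limma adjusted p = 0.12, 0.0593 and 0.0583 in the same order. Of these calls, that on chromosome 7 held with the wild type input (limma adjusted p = 0.038). None of the named calls for the RSC subunits held under an equal spread, another background correction or the deposited value table.

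The arrays were scanned on 5 days. Day 1 held 2 arrays each of *rsc1*Δ, *rsc2*Δ and wild type cells, and the median differences from wild type cells within it were 0.29 for *rsc1*Δ and 0.28 for *rsc2*Δ cells. Day 2 held *rco1*Δ replicate 1 and wild type replicate 3, and the median difference between this single pair was -1.29 with the own input and -0.09 with the wild type input. Day 4 held *rsc1*Δ replicate 3 and *rsc2*Δ replicate 3, and the median difference between this single pair was -0.08 with the own input. The *rco1*Δ replicates 2 and 3 were each scanned alone, so for them scan day and strain cannot be told apart.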

How the data were processed

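Per the labels, IP and input DNA of 12 samples were hybridized to yeast tiling arrays, scanned and read with Agilent Feature Extraction 10.5.1.1, and positions follow sacCer1. The authors deposited Feature Extraction intensity values (background-subtracted, dye-normalized processed signals of both channels, and spot and background medians). A value table of log2 ratios was also deposited by the authors. On each array it correlated with the plain background-subtracted log2 ratios of IP over input at r = 1, with a median absolute deviation of 0.82 to 0.89 and a median of -0.04 to 0.08, so its direction is known and its spread was also scaled. It was used as an alternative. In the study, ratios were median-normalized within arrays and quantile-adjusted between arrays in limma (Aquantile), which leaves each log2 ratio unchanged.

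The log2 ratio of processed Cy5 over Cy3 was taken per spot and outlier-flagged spots were removed. Each array was centered on its median over 41775 non-control probes, of which 41480 were nuclear. This removed 291 member spots and left 6610 members with all 12 ratios. No spot with a member was saturated. All 4 strains were fitted with limma 3.58.1 (R 4.3.3), with Benjamini-Hochberg adjustment over 41480 probes and a threshold of 0.05. Peaks and figures used pandas 2.3.3, numpy 2.4.6 and matplotlib 3.10.9. The fit was also run on simulated data as a check of the code, and no result given here rests on that run. The number of arrays, 3 per strain, limits the precision. Biological repeats were separate samples of 1 strain each.

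Named regions were the 5 widest and 5 highest peaks and, per comparison, up to 3 rises and 3 falls among called members whose arrays did not overlap and were well above background on all 6 arrays. The members and this rule were chosen with earlier results of these data known. Alternatives were the wild type input, equal spread, other background corrections and normalizations, the value table, peak limits, blocks for repeat number and scan day, and leaving out each array. Probes were not assigned to genes, since the gene table used here follows another build, and planned gene lists were not counted.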

Additional observations from a re-analysis of the deposited data

Results flagged for a closer look

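The *RSC1* and *RSC2* deletions were set directly against each other, and at 17 peak probes limma called the difference itself (Benjamini-Hochberg adjusted, threshold 0.05). *rsc1*Δ cells were higher at 5 of these probes and *rsc2*Δ cells at 12. This is 17 of 6853 members, and 506 members (7.38%) differed at an unadjusted p under 0.05, beside 12.1% of all nuclear probes. The shares of all nuclear probes called were 0.494% higher and 0.448% lower. The peak chr12:395374-395969, of which all 3 probes were lower in *rsc1*Δ cells, and the peak chr13:166948-167203, of which both were, held 5 of the 12. In each of these peaks, 1 probe was called lower with the wild type input.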

How the results depend on the processing

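The number of peaks, 2222 by the main rule, was 1110 with a height limit of 1.5, 1169 with at least 3 probes, 1289 after normexp background correction, 225 after normexp and loess and 599 in *rco1*Δ cells alone. Leaving out each array in turn gave 2176 to 2289.

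For *rco1*Δ against wild type cells, the median difference of the members was -0.45 with the wild type input, -0.39 with equal spread, -0.46 after normexp and loess, -0.83 in the value table and -1.29 with scan day as a block (-1.21 to -0.99 with each array left out). The members called numbered 1517, 1546, 1274, 2172 and 2270 in the same order and 3166 with plain background subtraction (4037 to 5017 with each array left out). At flank probes within 250 bp the median difference was -0.53 with the wild type input, -0.36 with equal spread, -0.33 with plain subtraction, -0.32 with normexp, -0.24 after normexp and loess and -0.25 in the value table (-0.49 to -0.41 with each array left out). With scan day as a block it was -0.40, from the same single pair of arrays. At the peak midpoint the difference was -0.34 with the wild type input. The direction was the same in each of these.

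For *rsc1*Δ against wild type cells, the median difference of the members was 0.0065 with equal spread, 0.046 after normexp and loess and 0.024 in the value table, and that of the flank probes was -0.000345 with equal spread. With each array left out they were 0.17 to 0.36 and 0.02 to 0.10, and 0 to 1 members were called. Of all nuclear probes, 0.00482% to 0.0555% were then higher and 0.0145% to 0.0796% lower. For *rsc2*Δ, the median difference was 0.042 with equal spread, 0.13 with plain subtraction, 0.0055 after normexp and loess and 0.069 in the value table, where the flank had -0.080. With each array left out they were 0.17 to 0.42 and -0.01 to 0.06, and 0 to 9 members were called. Of all nuclear probes, 0.0217% to 0.234% were then higher and 0.0434% to 0.535% lower. Of the 4 members called for *rsc2*Δ, 0 were left with the wild type input, equal spread, plain subtraction, normexp, normexp and loess, the value table, scan day as a block or an adjusted p under 0.01. In these settings at most 0.0289% of all nuclear probes were higher and 0.0579% lower. Among bright probes 1 member was called, beside 0.0941% higher and 0.156% lower of all bright nuclear probes.

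For *rsc1*Δ against *rsc2*Δ, the median difference was 0.20 with plain subtraction. Against 17 members called, there were 3 with the wild type input, 8 with scan day as a block, 5 with the arrays of these strains only, 4 at an adjusted p under 0.01 and 0 with equal spread, plain subtraction, normexp, normexp and loess or the value table. Of all nuclear probes, 0.135% were higher and 0.123% lower with the wild type input. They were 0.275% and 0.229% with scan day as a block, and 0.215% and 0.169% with the arrays of these strains only. At an adjusted p under 0.01 they were 0.152% and 0.111%. With each array left out, the median difference was -0.11 to 0.11, that of the flank 0.01 to 0.07, and 3 to 26 members were called. Of all nuclear probes, 0.164% to 0.653% were then higher and 0.125% to 0.586% lower. The causes were not tested.

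The repeat numbers were not used to pair the samples. The deviations of same-numbered arrays had correlations of -0.30 to 0.24, which cannot settle pairing with 3 arrays per strain. The value of 0.24 was that of *rsc1*Δ and *rsc2*Δ replicate 3, which were scanned on the same day. With a replicate block, 4756 members (69.4%) were lower and 0 higher for *rco1*Δ, beside 26.3% and 25.4% of all nuclear probes. For *rsc2*Δ 2 members were called, beside 0.0844% of all nuclear probes higher and 0.174% lower. For *rsc1*Δ against *rsc2*Δ 8 were called, beside 0.323% higher and 0.236% lower.

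With 3 arrays per strain, differences near 0.3 at single members were mostly below what the test called. Outside the 5179 members well above background on all arrays, ratios also rest on dim signals. Steps without probes leave the inside of 6 peaks unmeasured in part.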

Other observations

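The 2307 lone probes above 1.0, which no peak holds, had a median height of 1.44 and a highest value of 3.25. Their median difference between *rco1*Δ and wild type cells was -1.09, and limma called 68.8% of them lower in *rco1*Δ cells at an adjusted p under 0.05, beside 28.1% of all nuclear probes. Divided by the wild type input, they had a median difference of -0.27 and 12.1% were called lower, beside 16.2% of all nuclear probes, and the members had -0.45 and 21.2%.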
